A study of Mus musculus with 6 samples.

Results

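Transcripts of 9 secreted proteins were followed in chondrocytes with and without the potassium channel subunit Girk3. The set is grouped as antagonists, which hold bone morphogenetic proteins (BMPs) or activins away from their receptors. Bmper can also promote BMP signals. The 9 genes are Chrdl1, Chrdl2, Chrd, Nog, Grem1, Fst, Fstl1, Fstl3 and Bmper. They were taken by gene name from a table of 43346 genes, and all 9 were found and had enough counts to be tested. The list was chosen by function, but it was selected on these measurements as well: earlier results of the same genotype comparison were known, among them the fold change and p-value of Chrdl1. Differences between genotypes in these 9 genes are therefore given as a description and support nothing by themselves.

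The tested animals were 3 Girk3-null mice and the controls were 3 wild type mice, all 5 days old and C57BL/6 per the labels. Girk3 is encoded by Kcnj9 and is a subunit of G protein-gated inwardly rectifying potassium channels. Primary chondrocytes were released from the cartilage at the ends of growing bones by overnight collagenase digestion, and polyadenylated RNA was sequenced. How the null allele was made, whether it is limited to cartilage, and whether the controls were littermates is not given in the sources used here. The 3 libraries of each genotype are described by the series as biological replicates.

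BMPs and the related growth and differentiation factors bind paired serine/threonine kinase receptors, which switch on the transcription regulators Smad1, Smad5 and Smad9, whereas activins act through Smad2 and Smad3. In cartilage BMPs drive condensation, proliferation and hypertrophy of chondrocytes, and secreted antagonists set where and how strongly they act. Chordin and the chordin-like proteins bind BMPs through cysteine-rich repeats, noggin and gremlin 1 cover the receptor-binding faces of BMPs, and follistatin and follistatin-like 3 wrap around activins.

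Total counts per library lay between 34279516 and 60392837. Kcnj9 had 0 counts in all 6 libraries, so the deleted gene could not check the genotype labels. All animals are labelled male, yet the counts of 4 Y-linked genes summed to 16088 in replicate 1 of the null group and to 0 to 7 in each of the other 5 libraries. Xist, the RNA of the inactive X chromosome, had 19 counts in that library and 67346 to 144825 counts in the other 5. The label thus did not match the transcripts of 5 libraries, and Girk3-null replicate 1 stands apart, so results are also given without it. All 15 chondrocyte markers were detected, with a summed level of 82610, 116400 and 130800 CPM (counts scaled to a common library total) in Girk3-null replicates 1, 2 and 3. The same sum was 69760, 53730 and 89250 CPM in wild type replicates 1, 2 and 3. In whole digests such as these, fewer cells of a type and less RNA per cell cannot be told apart.

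Fstl1, a secreted glycoprotein with a follistatin-like module, was by far the most abundant of the 9 transcripts per unit of length. Levels between genes are compared as the deposited RPKM, which are read counts scaled to gene length and library total. Fstl1 averaged 67.8 ± 9.15 RPKM in Girk3-null and 91.8 ± 24.2 RPKM in wild type libraries (SD, n = 3 each, as for all means below). Its share of the summed RPKM of the 9 genes was 50.8%, 56.2% and 57.7% in Girk3-null replicates 1, 2 and 3, against 71.9%, 75.4% and 58.6% in the wild type replicates. Wild type replicate 3 lay close to the null libraries in this share. The 8 other genes made up 42.3% to 49.2% of the sum in null libraries and 24.6% to 41.4% in wild type libraries.

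Below Fstl1 the wild type order was Grem1, Fstl3, Fst, Bmper, Nog, Chrdl2, Chrd and Chrdl1. Grem1 and Fstl3 overlapped in their wild type ranges, as did Nog and Chrdl2, and the other neighbours did not. Grem1, a cystine-knot protein that binds BMPs, averaged 20.5 ± 11.1 RPKM in null and 11.6 ± 1.33 RPKM in wild type libraries. Chrdl1 stood last in wild type libraries at 0.317 ± 0.0375 RPKM. In null libraries Chrdl1 averaged 1.30 ± 0.546 RPKM and overlapped with Chrd, which averaged 1.24 ± 0.36 RPKM. Chrdl2 stood sixth among the 8 genes below Fstl1 in wild type libraries, and the third of the 8 in null libraries, where its range overlapped those of Grem1, Fstl3 and Fst.

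**Figure D1:**
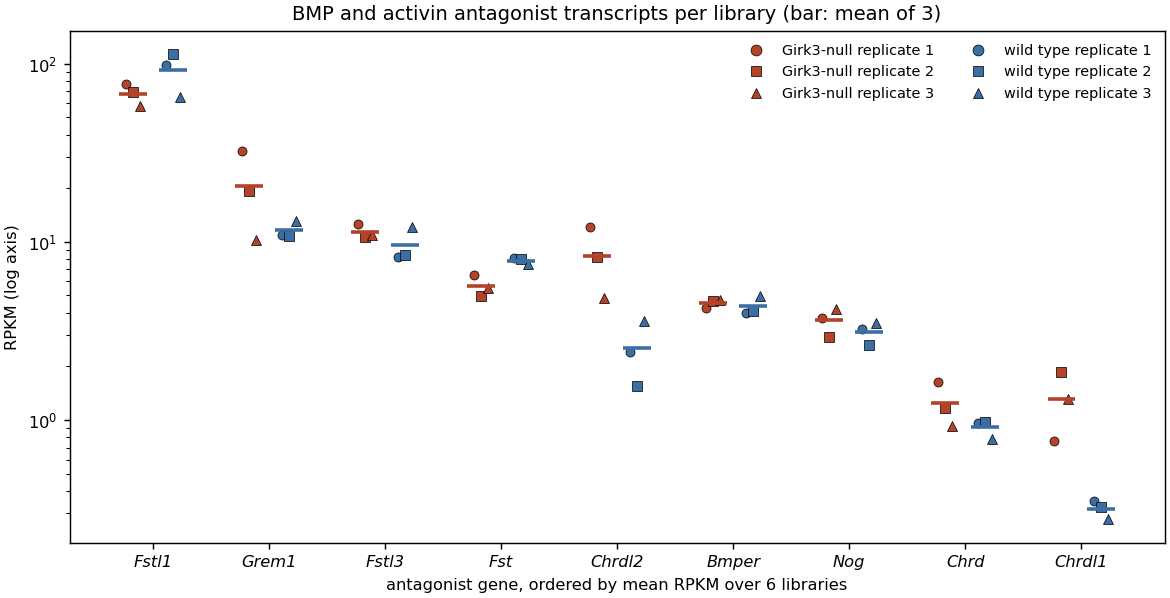
RPKM on a log axis of the 9 antagonist genes in each library, with Girk3-null libraries in red left of wild type libraries in blue and a bar at the mean of 3. Fstl1 stands highest in both genotypes, Chrdl1 and Chrdl2 are higher in every null than in every wild type library, and Fst is lower in every null library.

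Chrdl1 encodes chordin-like 1, also called ventroptin, a BMP-binding protein with chordin-type cysteine-rich repeats (ENSMUSG00000031283; chromosome X, 143285674 to 143394262, minus strand, mm10). It measured 0.760, 1.85 and 1.30 RPKM in Girk3-null replicates 1, 2 and 3, against 0.351, 0.323 and 0.277 RPKM in wild type replicates 1, 2 and 3. Every null library was above every wild type library, and the lowest null value came from replicate 1. These levels rest on 302 to 561 counts in null libraries and 79 to 110 counts in wild type libraries. The ratio of mean RPKM, null over wild type, was 4.12. The log2 fold change in edgeR's quasi-likelihood fit was 2.15 with a standard error of 0.32, and 2.44 with a standard error of 0.20 without Girk3-null replicate 1.

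Chrdl2 encodes chordin-like 2, a second protein of this type that is known from mouse cartilage and joints (ENSMUSG00000030732; chromosome 7, 100006404 to 100034728, plus strand, mm10). It measured 12.1, 8.17 and 4.81 RPKM in Girk3-null replicates 1, 2 and 3, against 2.40, 1.55 and 3.61 RPKM in wild type replicates 1, 2 and 3. The groups did not overlap, but unlike Chrdl1 the highest value came from null replicate 1. The nearest pair was null replicate 3 and wild type replicate 3. The log2 fold change was 1.81 with a standard error of 0.40, and 1.47 with a standard error of 0.38 without Girk3-null replicate 1.

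Chrd, chordin itself (ENSMUSG00000006958; chromosome 16, 20733127 to 20742384, plus strand, mm10), is the founding member of that family. It measured 1.63, 1.17 and 0.924 RPKM in Girk3-null replicates 1, 2 and 3, against 0.967, 0.979 and 0.782 RPKM in wild type replicates 1, 2 and 3. On RPKM the groups overlapped, because null replicate 3 lay below wild type replicates 1 and 2. With TMM scaling, which corrects for composition, the null values of 9.72, 7.04 and 5.77 CPM lay above the wild type values of 5.29, 5.30 and 4.71 CPM. The log2 fold change was 0.56 with a standard error of 0.22, and 0.33 with a standard error of 0.18 without Girk3-null replicate 1. Chrd shares 239 of its 6258 exonic bases with Thpo on the opposite strand, which had 277 counts in all.

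Nog encodes noggin, whose loss in mice leaves cartilage overgrown and joints unformed (ENSMUSG00000048616; chromosome 11, 89300638 to 89302332, minus strand, mm10). It measured 3.75, 2.93 and 4.21 RPKM in Girk3-null replicates 1, 2 and 3, against 3.22, 2.65 and 3.52 RPKM in wild type replicates 1, 2 and 3. The groups overlapped, and the log2 fold change of 0.32 had a standard error of 0.22.

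Grem1 encodes gremlin 1 (ENSMUSG00000074934; chromosome 2, 113746164 to 113758646, minus strand, mm10). It measured 32.2, 19.2 and 10.2 RPKM in Girk3-null replicates 1, 2 and 3, against 10.9, 10.7 and 13.1 RPKM in wild type replicates 1, 2 and 3. The highest null value was 3.16 times the lowest, and null replicate 3 lay below all wild type libraries on RPKM but between them in TMM-scaled CPM. The log2 fold change was 0.91 with a standard error of 0.34, and 0.45 with a standard error of 0.25 without Girk3-null replicate 1, so that 1 library moved it by more than 1.5 times. Chrdl2, Grem1 and Chrd all ran from highest in null replicate 1 to lowest in null replicate 3. Fstl1 ran in this order too, at 382, 348 and 305 CPM in Girk3-null replicates 1, 2 and 3, though its log2 fold change was -0.32. The summed level of 10 osteoblast markers had the same order, at 607, 378 and 234 CPM in Girk3-null replicates 1, 2 and 3, and was 138 to 171 CPM in wild type libraries. Most of that sum in null libraries was Smpd3, a sphingomyelinase of mineralizing cells, at 489, 272 and 146 CPM in Girk3-null replicates 1, 2 and 3, against 55.7 to 89.4 CPM in wild type libraries. The other 9 markers summed to 118, 107 and 87.9 CPM in Girk3-null replicates 1, 2 and 3, against 81.5 to 93.8 CPM in wild type libraries, so without Smpd3 the groups overlapped. Dmp1, an osteocyte matrix protein, went the other way, with all null libraries below all wild type libraries and a log2 fold change of -1.43. Of these 10 markers 8 had a positive log2 fold change, none was at 0 counts, and their part in the values of Chrdl2, Grem1 and Chrd was not tested. The falling order was not particular to osteoblast markers. Total counts fell in the same order, at 60392837, 44864868 and 34279516 in Girk3-null replicates 1, 2 and 3, and the part of sequencing depth was not tested. Macrophage and leukocyte markers summed to 319.4, 290.3 and 232.5 CPM in Girk3-null replicates 1, 2 and 3, and adipocyte markers to 55.9, 38.5 and 27.5 CPM. The groups of both these sums overlapped, and their part was not tested either. Of the 7 adipocyte markers only 2 had enough counts to be tested, with 1 positive and 1 negative log2 fold change. Lep was at 0 counts.

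Fst encodes follistatin, which binds activins almost irreversibly and some BMPs more weakly (ENSMUSG00000021765; chromosome 13, 114452262 to 114458730, minus strand, mm10). It measured 6.50, 4.97 and 5.54 RPKM in Girk3-null replicates 1, 2 and 3, against 8.06, 7.97 and 7.51 RPKM in wild type replicates 1, 2 and 3. It was the only one of the 9 genes whose null libraries all lay below all wild type libraries. The log2 fold change was -0.36 with a standard error of 0.14, and -0.46 with a standard error of 0.13 without Girk3-null replicate 1. Across the 6 libraries log2 CPM of Fst and Chrdl1 had a Pearson's r of -0.98, a description over libraries that also differ in genotype. This pair was the strongest of all pairs among the 9 genes, and Fstl1 with Bmper had -0.96.

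Fstl1 (ENSMUSG00000022816; chromosome 16, 37776873 to 37836514, plus strand, mm10) measured 76.4, 68.9 and 58.1 RPKM in Girk3-null replicates 1, 2 and 3, against 97.7, 112 and 65.1 RPKM in wild type replicates 1, 2 and 3. The groups overlapped only through wild type replicate 3, and the log2 fold change was -0.32 with a standard error of 0.17. Fstl3 encodes follistatin-like 3, a second activin-binding protein (ENSMUSG00000020325; chromosome 10, 79777272 to 79782630, plus strand, mm10). It measured 12.6, 10.6 and 11.0 RPKM in Girk3-null replicates 1, 2 and 3, against 8.25, 8.40 and 12.1 RPKM in wild type replicates 1, 2 and 3. Here too wild type replicate 3 fell among the null libraries, and the log2 fold change was 0.35 with a standard error of 0.19. Fstl3 shares 1157 of its 2445 exonic bases with Prss57 on the opposite strand, which had 53 counts in all.

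Bmper encodes a BMP-binding protein related to the Drosophila protein crossveinless-2, which can either hold back or promote BMP signals (ENSMUSG00000031963; chromosome 9, 23223076 to 23485202, plus strand, mm10). It measured 4.28, 4.67 and 4.73 RPKM in Girk3-null replicates 1, 2 and 3, against 3.97, 4.08 and 4.98 RPKM in wild type replicates 1, 2 and 3. It varied least of the 9, with a highest value 1.25 times the lowest over 6 libraries, and its log2 fold change was 0.17 with a standard error of 0.16.

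**Figure D2:**
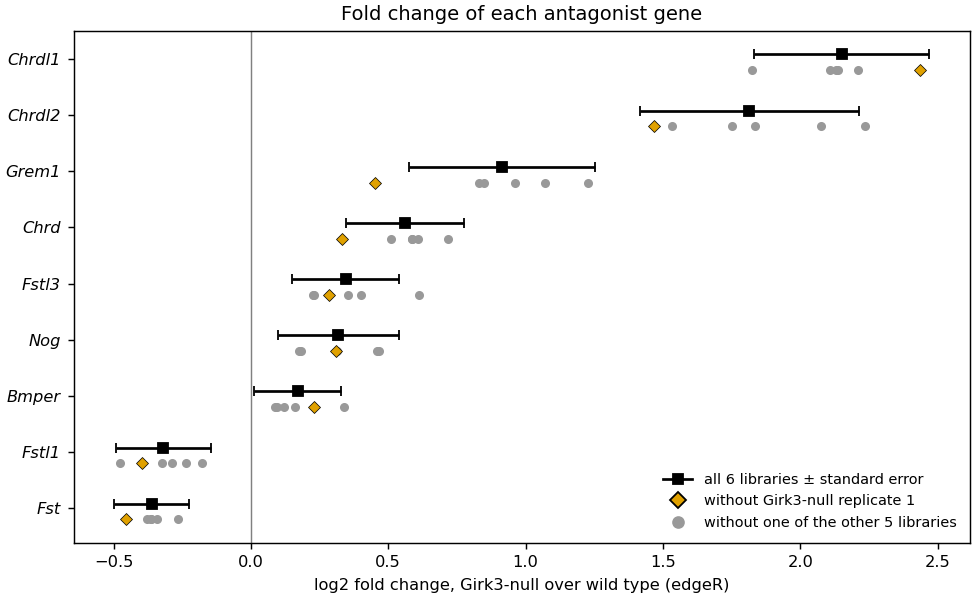
Log2 fold change, Girk3-null over wild type, of each antagonist gene in edgeR, with black squares and standard error bars for all 6 libraries, diamonds without Girk3-null replicate 1 and grey dots without each other library. Chrdl1 and Chrdl2 stay above 1 with any library left out, Grem1 falls to 0.45 without null replicate 1, and Fst and Fstl1 stay below 0.

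In edgeR's quasi-likelihood test over all 17554 genes tested, 0 of the 9 genes passed an adjusted p (Benjamini-Hochberg) of 0.05, where 1 gene in all passed (0.00570%). Adjusted p ran from 0.291 for Chrdl1 and Chrdl2 to 0.617 for Bmper. At an unadjusted p under 0.05 there were 5 of the 9, Chrdl1, Chrdl2, Chrd and Grem1 higher and Fst lower, against 14.5% of all genes tested. DESeq2 called Chrdl1 and Chrdl2, 2 of the 9 and both higher, where it called 1.93% of all genes, 1.03% as higher and 0.900% as lower. In TMM-scaled CPM, 3 of the 9 genes (Chrdl1, Chrdl2 and Chrd) had all null above all wild type libraries, as did 9.86% of all genes tested. Fst was the 1 gene with all null below all wild type libraries, as were 10.2% of all genes. With Girk3-null replicate 1 left out, the same 3 and 1 genes were separated, against 13.9% of all genes higher and 14.4% lower. When wild type replicate 3 was dropped instead, the counts were 6 higher and 2 lower, against 23.6% and 22.2% of all genes.

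The numbers in the sample titles fall into a class below 200, with null replicate 1 and wild type replicates 1 and 2, and a class above 200 with the other 3 libraries. The labels do not say what the numbers stand for. Without null replicate 1, both remaining null libraries are in the class above 200, while wild type replicates 1 and 2 stay in the class below. In the fits without it, genotype and title class are therefore harder to tell apart. The log2 ratio of mean CPM, null over wild type, of Chrdl1 was 1.30 in the class below 200 and 2.53 in the class above 200. That of Chrdl2 was 2.74 below and 0.86 above, and that of Fst was -0.17 below and -0.49 above. Grem1 had a ratio of 1.70 below 200 and 0.18 above it. Fstl3 and Bmper, at 0.73 and 0.22 below 200, had -0.14 and -0.06 above it, so their direction did not hold within both classes. With 1 library on one side of each class, these ratios carry no test. Below 200, null replicate 1, the only library with many Y-linked counts, is set against wild type replicates 1 and 2, both high in Xist. In that class genotype and sex-linked transcripts cannot be told apart.

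**Figure D3:**
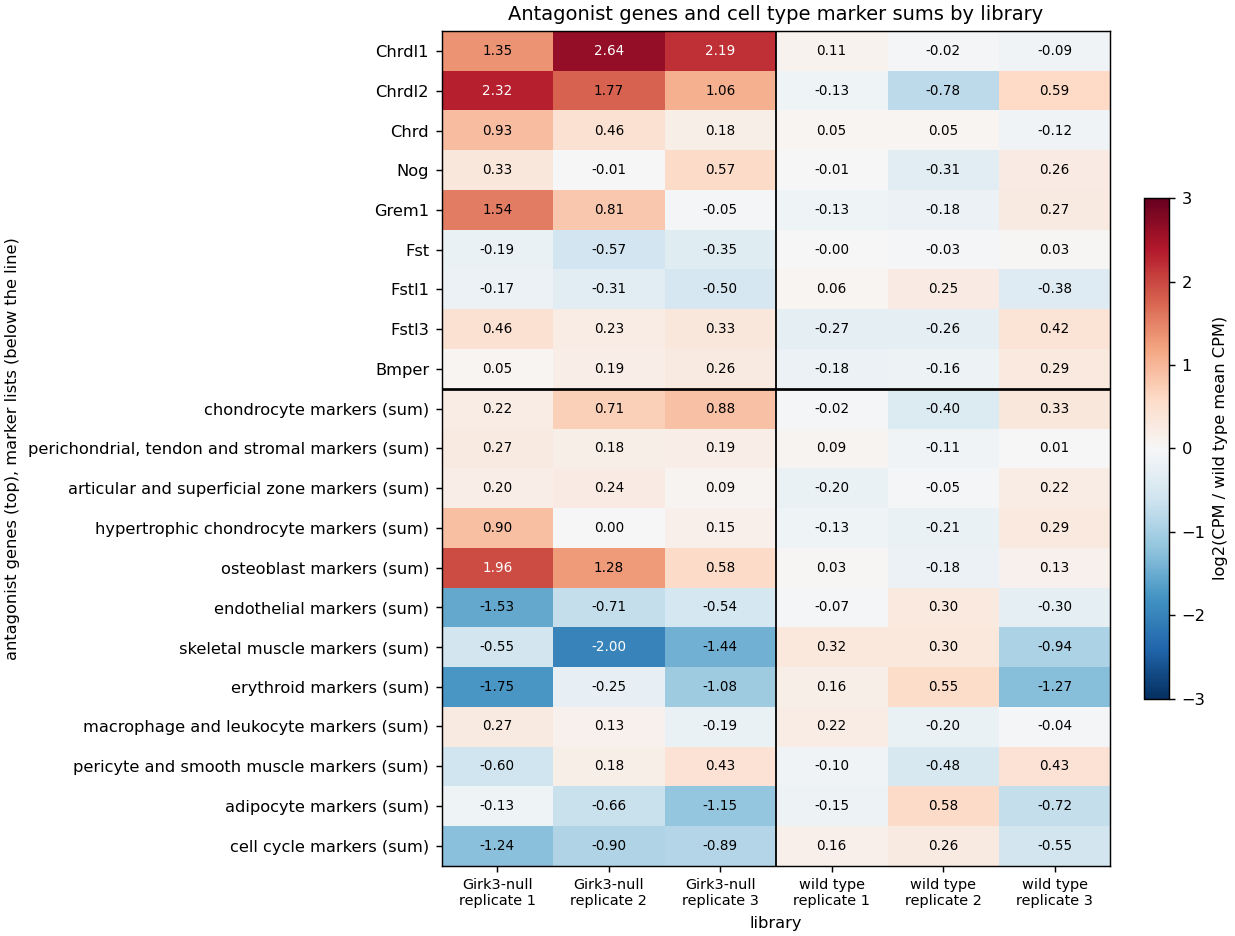
Log2 ratio of TMM-scaled CPM to the wild type mean, for the 9 antagonist genes and for the summed markers of 12 cell types or states, with Girk3-null libraries left of wild type libraries and the colour scale running from -3 to 3. Chrdl1 is highest in null replicate 2, and Chrdl2, Grem1 and Chrd are highest in null replicate 1. The osteoblast, hypertrophic chondrocyte, macrophage and leukocyte, and stromal sums are also highest in null replicate 1. Fstl3 and Bmper in wild type replicate 3 reach 0.42 and 0.29, above at least 2 of their 3 null values.

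Marker sums of endothelial and cycling cells in the digests did not overlap between the genotypes, nor did those of perichondrium, tendon and stroma. The osteoblast sum given above did not overlap either, but only with Smpd3 included. Summed endothelial markers (12 of 12 detected) were 68.3 to 136 CPM in null and 160 to 242.4 CPM in wild type libraries. In 9 of these 12 all null libraries were below all wild type libraries, as in 10.2% of all genes tested. Cell cycle markers (10 of 10 detected) were 144 to 184 CPM in null and 233 to 407 CPM in wild type libraries. Of these, 9 had all null below all wild type libraries, against the same 10.2% of all genes. Markers of perichondrium, tendon and stroma (15 of 15 detected), tissues that also produce several of these antagonists, summed to 13030 to 13850 CPM in null and 10660 to 12250 CPM in wild type libraries. That list went both ways, with 8 of 15 log2 fold changes positive and 7 negative. In each direction 1 of its genes was separated, against 9.86% higher and 10.2% lower of all genes tested. Hypertrophic chondrocyte markers (11 of 11 detected) had 10 positive log2 fold changes. Of the 11, 7 had all null above all wild type libraries, against 9.86% of all genes tested. The sums of this list overlapped, at 13720 to 25540 CPM in null and 11860 to 16680 CPM in wild type libraries. Skeletal muscle markers (12 of 12 detected) had 11 negative log2 fold changes. Of the 12, 7 had all null below all wild type libraries, against 10.2% of all genes tested. The sums of this list overlapped as well, at 16.99 to 46.4 CPM in null and 35.3 to 84.3 CPM in wild type libraries. Chondrocyte markers, whose overlapping sums are given above, had 14 of 15 log2 fold changes positive. Their median was 0.58, and 0.75 without Girk3-null replicate 1. Of the 15, 5 had all null above all wild type libraries, against 9.86% of all genes tested. None of the markers of these lists was at 0 counts. Their part in the values of Chrdl1, Chrdl2 and Fst was not tested.

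Genes whose log2 CPM over the 6 libraries ran most like that of Chrdl1, by Pearson's r among the 12867 genes whose mean log2 CPM reached 1, were Psme1 (0.99), Cc2d1b (0.97), Gm9762 (0.97), Ccdc23 (0.97) and Enho (0.97). With so many genes compared over 6 libraries, these values are a description. Psme1 encodes a proteasome activator subunit and Enho a secreted peptide called adropin. Psme1 had 27.0 ± 1.70 CPM in null and 22.9 ± 0.664 CPM in wild type libraries, a far smaller difference than that of Chrdl1. Enho had 3.86 ± 0.798 CPM in null and 1.84 ± 0.311 CPM in wild type libraries. The gene most like each other member was Trmt44 for Chrdl2, Mtfr1l for Chrd, Tprgl for Nog, Vps41 for Grem1, Gm12693 for Fst, Gm4617 for Fstl1, Il12rb1 for Fstl3 and 1700021K19Rik for Bmper, with r between 0.992 and 0.998.

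Around the 9 genes, 91 distinct genes of the pathway were listed by role and 76 were tested. In edgeR 0 of the 76 passed an adjusted p of 0.05, against 0.00570% of all genes tested, and 17 had an unadjusted p under 0.05, against 14.5%. DESeq2 called 4 of the 76, among them Dlx5 as higher and Inhba and Inhbb as lower, against 1.93% of all genes. The median log2 fold change over all genes tested was 0.0138.

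Other secreted antagonists had a median log2 fold change of 0.31 over 13 tested genes, 12 of them positive, and 0.35 without Girk3-null replicate 1. In 4 of the 13 all null libraries were above all wild type libraries, as in 9.86% of all genes tested. Dand5, a low-level antagonist of the DAN family, had 1.73 ± 0.177 RPKM in null and 1.02 ± 0.132 RPKM in wild type libraries.

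The most abundant antagonists of that list were Nbl1, the founding DAN family protein, and Smoc2, a matrix protein with a follistatin-like domain. Nbl1 had 115 ± 38.3 RPKM in null and 79.2 ± 22.2 RPKM in wild type libraries. Smoc2 had 112 ± 20.3 RPKM in null and 83.3 ± 26.0 RPKM in wild type libraries. In each null library both were above Fstl1, and for both the groups overlapped. Twsg1, a partner of chordin that can strengthen or release its hold on BMPs, had 51.4 ± 7.0 RPKM in null and 51.8 ± 1.93 RPKM in wild type libraries. Tsku, a small leucine-rich repeat protein, had 21.2 ± 2.29 RPKM in null and 19.5 ± 4.63 RPKM in wild type libraries. Of the proteases that cut chordin, Bmp1 had 25.1 ± 2.58 RPKM in null and 23.1 ± 3.32 RPKM in wild type libraries. Tll1 had 2.34 ± 0.814 RPKM in null and 3.20 ± 0.243 RPKM in wild type libraries, and neither protease passed the test.

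Activin, inhibin and myostatin ligands, a list that also holds Gdf11, had a median log2 fold change of -0.67, and -0.58 without Girk3-null replicate 1. Of 6 tested genes 4 were negative. Among these 4, Mstn and Inhbe rested on 90 and 290 counts over all libraries, and their groups overlapped. Inhba, which encodes the subunit of activin A, measured 26.6, 18.3 and 27.5 RPKM in Girk3-null replicates 1, 2 and 3, against 40.8, 46.7 and 40.2 RPKM in wild type replicates 1, 2 and 3. Its groups did not overlap, and the log2 fold change was -0.71 (standard error 0.16, adjusted p = 0.291 in edgeR). Inhbb, the subunit of activin B, measured 1.53, 1.22 and 1.23 RPKM in Girk3-null replicates 1, 2 and 3, against 2.186, 2.40 and 2.03 RPKM in wild type replicates 1, 2 and 3. It also did not overlap, with a log2 fold change of -0.62 and a standard error of 0.16 (adjusted p = 0.291 in edgeR). In null libraries the mean RPKM of Inhba and of Fst, its binding protein, were therefore both below their wild type means. Inha, which turns activin into inhibin, had 3.41 ± 0.756 RPKM in null and 2.47 ± 0.769 RPKM in wild type libraries. Gdf11, a further ligand of follistatin, had 0.688 ± 0.234 RPKM in null and 0.638 ± 0.138 RPKM in wild type libraries.

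BMP and GDF ligands, only some of which are held by chordin, noggin or gremlin proteins, had a median log2 fold change of 0.08. The median was over 13 tested genes, 7 positive and 6 negative. Bmp6, the most abundant, had 42.8 ± 15.5 RPKM in null and 54.0 ± 6.37 RPKM in wild type libraries, and it shares 224 of its 3900 exonic bases with Txndc5 on the opposite strand. Bmp2 had 13.3 ± 3.08 RPKM in null and 15.3 ± 1.60 RPKM in wild type libraries. Gdf5, a ligand of developing joints, had 13.4 ± 2.04 RPKM in null and 13.2 ± 2.47 RPKM in wild type libraries. Gdf10 had 31.9, 15.8 and 11.6 RPKM in Girk3-null replicates 1, 2 and 3, against 8.24, 14.4 and 13.0 RPKM in wild type replicates 1, 2 and 3. The groups of these 4 ligands overlapped. Gdf1 and Gdf15 had the smallest p-values of the list, with log2 fold changes of 1.504 and 0.96 (adjusted p = 0.291 in edgeR for both). Gdf1 rested on 148 counts over all libraries.

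Receptors and co-receptors had a median log2 fold change of -0.08 over 15 tested genes, 7 positive and 8 negative. Acvr1b, the type I receptor of activins, measured 27.4, 22.3 and 23.7 RPKM in Girk3-null replicates 1, 2 and 3, against 16.7, 14.98 and 21.7 RPKM in wild type replicates 1, 2 and 3. All null libraries were above all wild type libraries, with a log2 fold change of 0.55 (adjusted p = 0.291 in edgeR). Acvr2a, a type II receptor of activins, had 2.48 ± 0.203 RPKM in null and 3.48 ± 0.593 RPKM in wild type libraries, and overlaps Orc4 on the opposite strand. Among BMP receptors, Bmpr1a had 18.7 ± 2.40 RPKM in null and 22.1 ± 1.73 RPKM in wild type libraries. Acvr1 had 21.8 ± 1.79 RPKM in null and 27.7 ± 1.31 RPKM in wild type libraries, and its groups did not overlap. Tgfbr3, a co-receptor, had 30.7 ± 9.41 RPKM in null and 25.9 ± 1.48 RPKM in wild type libraries.

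Smad transducers and their inhibitors had a median log2 fold change of -0.06 over 12 tested genes, 5 positive and 7 negative. Smad3 had 34.0 ± 2.86 RPKM in null and 33.8 ± 3.32 RPKM in wild type libraries, and Smad4 had 26.7 ± 2.36 RPKM in null and 29.2 ± 0.357 RPKM in wild type libraries. Skil, a repressor of Smad-driven transcription that is itself induced by TGF-beta and activin, had 9.62 ± 1.01 RPKM in null and 14.1 ± 1.0 RPKM in wild type libraries. Its null libraries all lay below its wild type libraries, with a log2 fold change of -0.44 (standard error 0.11, adjusted p = 0.291 in edgeR). Smurf2, a ubiquitin ligase for Smads, had 17.9 ± 1.27 RPKM in null and 22.6 ± 1.53 RPKM in wild type libraries. Ski, a repressor related to Skil, had 20.4 ± 2.40 RPKM in null and 18.5 ± 0.998 RPKM in wild type libraries. Smad9 had 2.73 ± 0.757 RPKM in null and 1.93 ± 0.324 RPKM in wild type libraries.

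Genes known to be induced by BMPs had a median log2 fold change of 0.27 over 19 tested genes, 13 positive and 6 negative, and 0.25 without Girk3-null replicate 1. The list shares Smad6, Smad7, Smad9 and Bambi with the lists above. Id1, an early target of BMP receptors, measured 47.5, 41.0 and 49.4 RPKM in Girk3-null replicates 1, 2 and 3, against 48.2, 42.1 and 45.9 RPKM in wild type replicates 1, 2 and 3. The groups overlapped throughout, and its log2 fold change of 0.12 had a standard error of 0.12. Id3 had 49.8 ± 5.31 RPKM in null and 44.7 ± 6.63 RPKM in wild type libraries, and Id2 had 93.0 ± 6.39 RPKM in null and 117 ± 18.4 RPKM in wild type libraries. Smad7 had 10.3 ± 3.26 RPKM in null and 12.9 ± 0.519 RPKM in wild type libraries.

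Dlx5 and Sp7, regulators of hypertrophic chondrocytes and osteoblasts, had the smallest p-values among the BMP-induced genes. Dlx5 measured 4.70, 3.94 and 4.08 RPKM in Girk3-null replicates 1, 2 and 3, against 2.71, 2.11 and 2.61 RPKM in wild type replicates 1, 2 and 3. Its groups did not overlap, with a log2 fold change of 0.88 and a standard error of 0.19 (adjusted p = 0.291 in edgeR). Sp7 measured 16.1, 12.6 and 10.6 RPKM in Girk3-null replicates 1, 2 and 3, against 9.09, 8.56 and 10.9 RPKM in wild type replicates 1, 2 and 3. On RPKM its groups overlapped through wild type replicate 3, and the log2 fold change of 0.56 had a standard error of 0.18. In TMM-scaled CPM they just did not overlap, at 32.9 CPM in null replicate 3 against 32.6 CPM in wild type replicate 3. Both genes differed in the direction of the osteoblast marker sum given above, a list that itself holds Sp7, and the part of that sum was not tested.

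**Figure D4:**
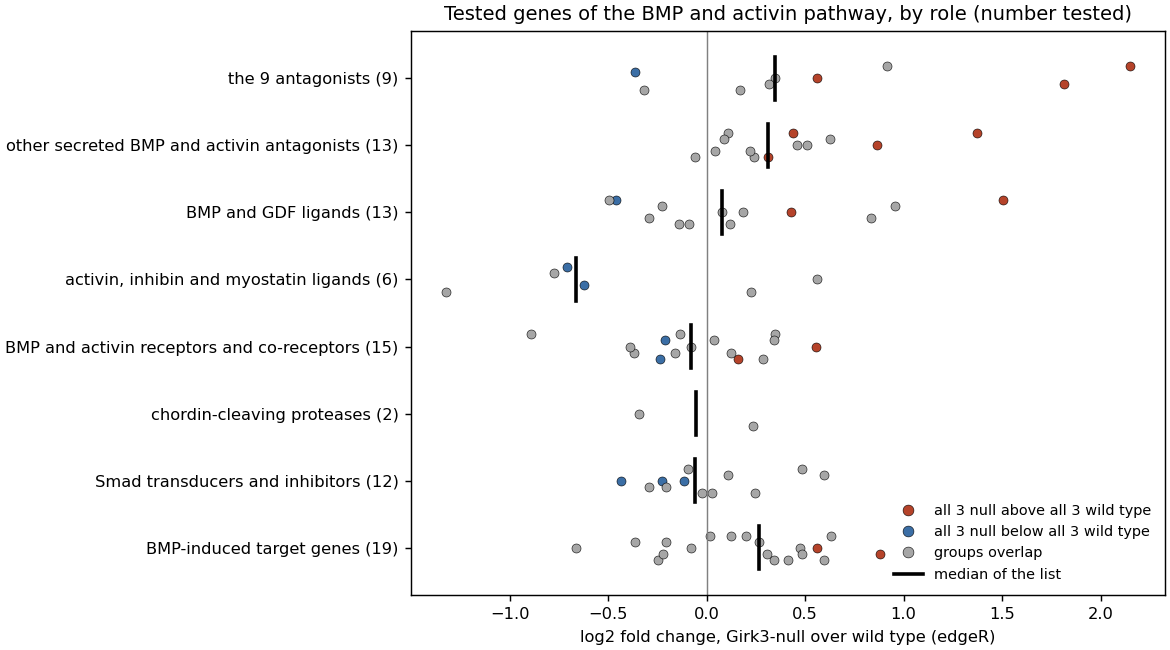
Log2 fold change in edgeR, Girk3-null over wild type, of every tested gene of the antagonist set and of 7 lists by role, with red for all null above all wild type libraries, blue for all null below, grey for overlap and a black bar at the median. Activin, inhibin and myostatin ligands have a median of -0.67, other antagonists 0.31, and receptors and Smads lie close to 0.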

How the data were processed

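The authors deposited raw gene counts and RPKM, 1 column of each per library, per the file headers. Per the submitters' processing notes, bcl2fastq 2.19.0, STAR 2.5.2b and mm10 were used; for the counting tool, annotation and strand setting: not given in the sources used here. The deposited RPKM equalled count over library total and gene length plus 1 base. All 37 mitochondrial genes were at 0.

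Counts were tested with edgeR 4.0.16 (quasi-likelihood, genotype alone, TMM, filterByExpr with a minimum count of 10 and total of 15) in R 4.3.3, leaving 17554 genes. P-values were adjusted over all of them (Benjamini-Hochberg, threshold 0.05). Log2 CPM had a prior count of 2. A count of 0 allows 3 counts, 0.0497 to 0.0875 CPM, for counting error only. Replicates of a group differed beyond sampling noise (chi-square per degree of freedom 26.3 to 138). This value was 26.3 and 29.8 for pairs within a title number class, and 83.6 to 138 for pairs across the classes.

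Strands and overlaps are from GENCODE M21 on the same build. Members and lists were chosen with earlier results of these data known. Named pathway genes were the 4 of highest mean RPKM and the 2 of smallest p per list, and for likeness the 5 nearest to Chrdl1 and the nearest to each other member. A gene named by this rule is not reported here. Alternatives were other scalings, DESeq2 1.42.0, limma 3.58.1 (voom, and log2(RPKM + 0.1) or log2(RPKM + 1)), no filter, a title number covariate and leaving out each library. Added after seeing the data were the counts of non-overlapping genes without each library and on RPKM, ratios within title number classes, and the osteoblast sum without Smpd3.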

Additional observations from a re-analysis of the deposited data

How the results depend on the processing

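Over the 14 alternatives the log2 fold change of each of the 9 genes kept its sign in all 14. It ran from 0.78 on log2(RPKM + 1) to 2.44 for Chrdl1 and from 1.38 to 2.24 for Chrdl2, and their adjusted p from 1.60e-07 to 0.814 and from 0.000987 to 0.814. The number of genes called over all genes, 1 in edgeR, was 339 with DESeq2, 53 with no filter on low counts, and 0 with library size only, limma-voom, log2(RPKM + 0.1), log2(RPKM + 1) and the title number covariate. It was 0 to 74 when 1 library was left out, the most without wild type replicate 3. Of the 9 genes, 0 in edgeR, 2 were called with DESeq2 and 2 (Chrdl1 and Chrdl2) with no filter. Of the other pathway genes, 4 were called with DESeq2 and 1 with no filter. With library size only, the median over all genes was -0.09, so RPKM means of null libraries read slightly low beside the fold changes. The median of activin, inhibin and myostatin ligands was -0.20 on log2(RPKM + 1) and -0.50 with title number as a covariate, and that of other antagonists was 0.15 on log2(RPKM + 1) and 0.50 without wild type replicate 3. The median of BMP and GDF ligands was 0.32 without wild type replicate 3. That of receptors, -0.08 in edgeR, was -0.19 with library size only, -0.17 on log2(RPKM + 0.1), 0.04 with title number as a covariate and -0.01 to -0.12 when 1 library was left out. That of Smads, -0.06, was -0.17 with library size only and on log2(RPKM + 0.1). The cause of these differences was not tested. No paired analysis was possible because the title numbers are not shared between the genotypes. Chrdl1 rests on the fewest counts of the 9, and the low wild type values limit its precision.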
